A study of Mus musculus with 4 samples.

Results

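The 10 genes described here are the immediate early genes *Fos*, *Fosb*, *Jun*, *Junb*, *Atf3*, *Egr1*, *Ier2* and *Ier3* and the Krüppel-like factor genes *Klf2* and *Klf4*, out of 45706 genes counted by RNA-seq in the fetal mouse lung. They were chosen by name, and their counts in the same 4 lungs were already known when the group was put together. Their differences between genotypes are therefore given as a description, and the group as a whole was not tested. Calls of single members come from a fit of all genes and are also given as a description. Each of the 10 had a mean of at least 5 counts per lung, the minimum applied before fitting, so none was lost to that filter.

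The lungs were left lobes taken at embryonic day 17 from untreated C57BL/6 mice. Of the 4 lungs, 2 were wild type and 2 were Myh10L458R/L458R, that is, homozygous for a missense allele (L458R) that arose by chemical (ENU) mutagenesis, which induces changes across the genome. *Myh10* encodes the heavy chain of non-muscle myosin IIB, and the allele is carried by every cell of the embryo. The comparison asks which transcripts differ between lungs with and without the altered myosin. Each lung gave between 19116971 and 32055306 counts on genes. *Myh10* itself was at 505 and 504 CPM (counts scaled to the normalised size of each library) in wild-type lungs and at 539 and 513 CPM in mutant lungs, so the transcript level does not tell the genotypes apart. Each genotype had 1 lung with high and 1 lung with low counts of *Xist*, the RNA expressed from the inactive X chromosome of females. *Xist* was at 3916 CPM in wild-type lung 1 and 4457 CPM in mutant lung 2. It was at 1.84 CPM in wild-type lung 2 and 4.1 CPM in mutant lung 1. The Y-linked gene *Ddx3y* had the reverse pattern, so wild-type lung 1 and mutant lung 2 were female and the other 2 male. Markers of several cell types were lower in mutant lungs, as detailed further on, and in whole tissue fewer cells of a type and less RNA per cell cannot be told apart.

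Immediate early genes are transcribed within minutes of a stimulus such as a growth factor, stretch or stress, from factors that are already present in the cell, and their mRNAs are short-lived. FOS, FOSB, JUN, JUNB and ATF3 are basic leucine zipper proteins that pair to form AP-1 and related dimers on DNA. EGR1 and the KLF proteins are zinc finger factors that bind GC-rich sites. KLF2 and KLF4 are also known as flow-responsive factors of the endothelium, which lines blood vessels, and KLF4 is made by epithelial cells and fibroblasts as well.

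Short motifs were searched in the promoters, and only some are marked below, which leaves out the GC box GGGCGG. The promoters of 4 members are shown as examples. They come from RefSeq (GRCm38.p6), run 5′ to 3′ on the strand of the gene, and hold 120 bases that end just before the annotated transcript. Capitals mark the TGACG core of the cAMP response element and the TATAAA box in *Fos*, an NF-kB site in *Ier3*, and a MEF2 site in *Jun* and in *Klf2*.
Fos: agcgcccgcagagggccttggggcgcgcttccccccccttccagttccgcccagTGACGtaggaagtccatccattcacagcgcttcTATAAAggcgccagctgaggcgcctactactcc
Jun: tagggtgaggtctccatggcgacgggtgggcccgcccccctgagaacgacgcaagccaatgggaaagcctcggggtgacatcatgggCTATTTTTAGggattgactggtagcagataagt
Ier3: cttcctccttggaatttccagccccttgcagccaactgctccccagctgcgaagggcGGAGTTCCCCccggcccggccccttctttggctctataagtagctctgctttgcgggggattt
Klf2: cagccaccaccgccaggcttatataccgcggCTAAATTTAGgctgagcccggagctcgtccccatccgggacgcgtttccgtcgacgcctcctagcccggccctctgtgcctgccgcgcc

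These stretches lie at chr12:85473770-85473889 on the plus strand for *Fos*, chr4:95052223-95052342 on the minus strand for *Jun*, chr17:35821564-35821683 on the plus strand for *Ier3* and chr8:72318913-72319032 on the plus strand for *Klf2*. Motifs were searched on both strands in windows from 250 bases before to 50 bases after the start, in 8 members and in 32851 windows in all, and the table used has no window for *Ier2*, while that of *Egr1* was not used. The TGACG core was in 6 of 8 member windows (*Fos*, *Fosb*, *Junb*, *Atf3*, *Klf2* and *Klf4*) and in 20.8% of all windows. The GC box GGGCGG was in 7 of 8 and in 35.7% of all. A MEF2 site was in 3 of 8 and in 3.19% of all, an NF-kB site in 3 of 8 and in 8.46% of all, and the EGR site GCGNGGGCG in 3 of 8 and in 5.55% of all. The CACCC box CCACCC was in 4 of 8 and in 31.5% of all, and the CCAAT box in 4 of 8 and in 37.4% of all. TATAAA was in 2 of 8 and in 13.6% of all, and the ETS site CCGGAAG in 0 of 8 and in 8.86% of all. The sites for EGR1 and the GC box share letters and can overlap. The full cAMP response element TGACGTCA, the AP-1 site TGANTCA and the CArG box bound by SRF were in 0 of 8 member windows, and in 1.79%, 7.81% and 1.63% of all. The windows are short, and the SRF sites known for *Fos* lie farther from the start. Only matches to these patterns were counted, and the printed *Jun* stretch holds TGACATCA, a near match to TGACGTCA.

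Of the AP-1 genes, *Fos*, *Atf3*, *Junb* and, by a small margin, *Jun* had lower CPM in both mutant lungs than in both wild-type lungs, and *Fosb* overlapped. *Fos* (ENSMUSG00000021250, chromosome 12 from 85473890 to 85477273, plus strand), the partner that makes AP-1 with JUN proteins, was at 5.46 and 5.57 CPM in wild-type lungs and at 3.56 and 3.64 CPM in mutant lungs. The 2 lungs of each genotype lay close together and the genotypes were well apart, with a log2 fold change of mutant over wild type of -0.61 ± 0.16 (SE of the fit, n = 2 per genotype), or 34.6% lower. *Atf3* (ENSMUSG00000026628, chromosome 1 from 191170296 to 191218039, minus strand), a stress-induced factor of the same protein class, was at 3.45 and 3.31 CPM against 2.26 and 2.33 CPM. Its CPM values were apart as well, with a log2 fold change of -0.56 ± 0.20. Both genes rest on few reads, 99 to 125 raw counts per lung for *Fos* and 63 to 79 for *Atf3*. The exact Poisson 95% intervals of single lungs did not overlap between genotypes for *Fos* (lowest wild-type bound 4.54 CPM, highest mutant bound 4.36 CPM) but did for *Atf3* (2.54 and 2.92 CPM).

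*Junb* (ENSMUSG00000052837, chromosome 8 from 84974484 to 84978718, minus strand), a JUN protein with weaker activation than JUN on many targets, was at 16.8 and 18.8 CPM in wild-type and 13.2 and 15.1 CPM in mutant lungs. The genotypes did not overlap, but the lungs within each differed visibly, and the log2 fold change was -0.33 ± 0.10. *Jun* (ENSMUSG00000052684, chromosome 4 from 95049034 to 95052222, minus strand) was the most abundant member, at 109 and 114 CPM in wild-type and 103 and 101 CPM in mutant lungs, with a log2 fold change of -0.12 ± 0.05. Its 4 lungs lay in a narrow band in which the lower wild-type value was close to the higher mutant value. Exons of *Jun* and *Junb* overlap those of an antisense gene, *Junos* by 232 bp and *Prdx2* by 173 bp. The sources used here do not say whether reads were counted by strand, so these 2 counts are uncertain. *Fosb* (ENSMUSG00000003545, chromosome 7 from 19302696 to 19310051, minus strand), a FOS protein known from long-lasting stimulation, had only 17 and 8 counts in wild-type and 19 and 21 counts in mutant lungs. The exact Poisson 95% intervals of these 4 values all overlap, from 0.181 to 1.19 CPM in wild type and from 0.404 to 1.07 CPM in the mutant, so a difference was not detectable at this depth. Such intervals cover counting error only.

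*Egr1*, *Ier2* and *Ier3* behaved unlike one another. *Egr1* (ENSMUSG00000038418, chromosome 18 from 34859823 to 34864984, plus strand), a zinc finger factor induced by ERK signalling, was at 12.0 and 12.8 CPM in wild-type lungs and at 10.2 and 12.8 CPM in mutant lungs. Mutant lung 2 was level with the wild-type lungs and mutant lung 1 was below them, with a log2 fold change of -0.10 ± 0.12. *Ier2* (ENSMUSG00000053560, chromosome 8 from 84661331 to 84662852, minus strand), a single-exon gene for a small nuclear protein, was at 42.5 and 45.0 CPM against 34.6 and 37.4 CPM. Its genotypes were separate, with a log2 fold change of -0.28 ± 0.08. *Ier3* (ENSMUSG00000003541, chromosome 17 from 35821684 to 35822923, plus strand), which encodes a regulator of cell survival and ERK signalling, was at 26.6 and 30.8 CPM in wild-type and at 17.7 and 16.5 CPM in mutant lungs. Both mutant values were far below both wild-type values, with a log2 fold change of -0.74 ± 0.09, or 40.3% lower.

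*Klf2* and *Klf4* were both lower in mutant lungs. *Klf2* (ENSMUSG00000055148, chromosome 8 from 72319033 to 72321656, plus strand) was at 27.0 and 28.9 CPM in wild-type lungs and at 15.1 and 18.2 CPM in mutant lungs. All 4 lungs kept to their genotype, mutant lung 2 was the nearer of the mutant lungs to wild type, and the log2 fold change was -0.74 ± 0.09, or 40.3% lower. *Klf4* (ENSMUSG00000003032, chromosome 4 from 55527143 to 55532466, minus strand) was at 43.5 and 39.6 CPM against 29.7 and 32.0 CPM, with a log2 fold change of -0.43 ± 0.08, or 25.8% lower. The difference was smaller than that of *Klf2* and the genotypes were again apart.

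**Figure D1:**
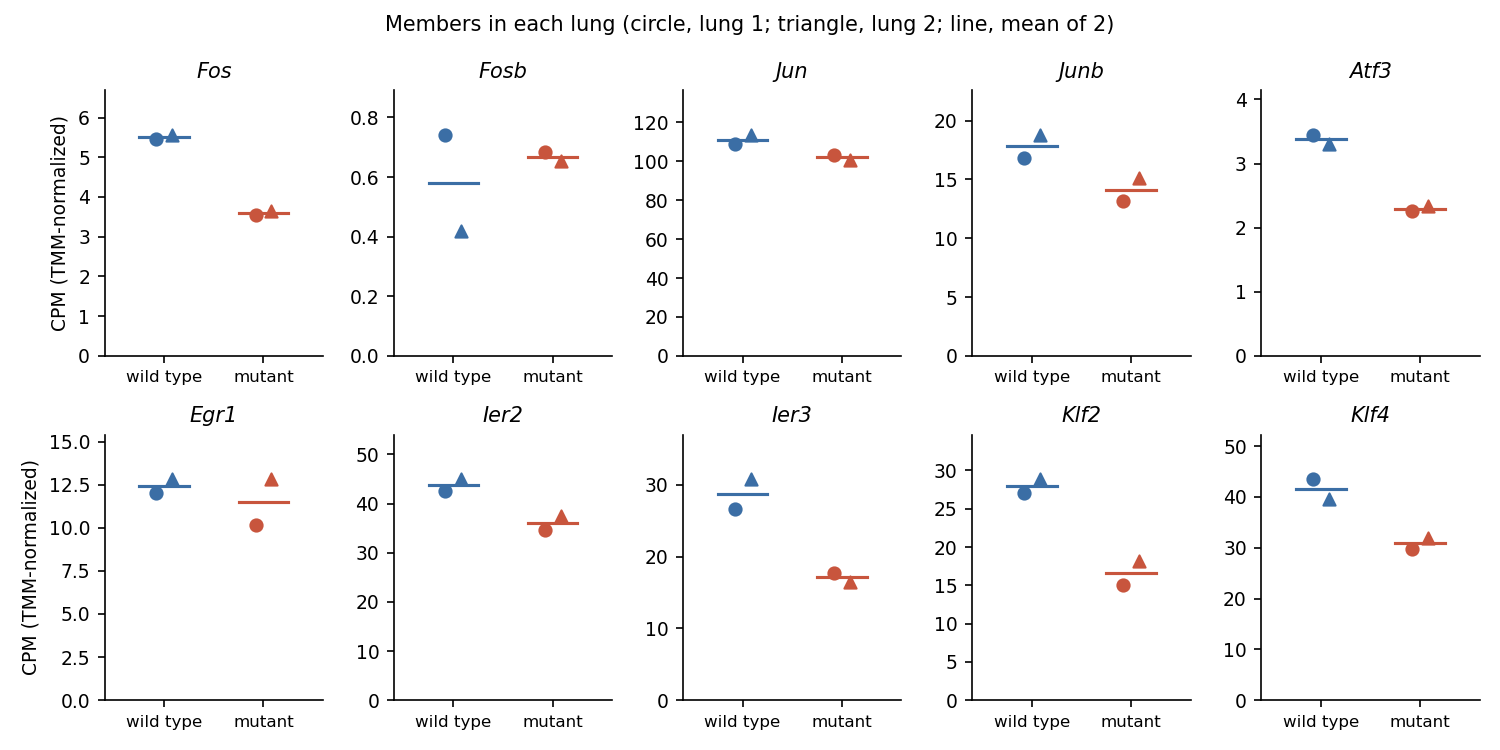
CPM of each of the 10 members in the 4 lungs, with 1 panel per gene and axes from 0; points are lungs and bars are the genotype mean. Both mutant points lie below both wild-type points in 8 panels, while the points overlap for *Fosb* and *Egr1*.

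Over the 10 members, 9 log2 fold changes were below 0, as were 49.5% of those of all genes tested, and the median was -0.38, beside 0.0018 for all 18763 genes tested, whose quartiles were -0.11 and 0.13. Both mutant lungs were below both wild-type lungs for 8 members, and that layout was found for 24.3% of all genes tested. At an adjusted p under 0.05, the edgeR quasi-likelihood test called 308 of the 18763 genes, or 1.64%, and 252 of them, or 1.34%, were lower in mutant lungs. *Ier3*, *Klf2* and *Klf4* were among these, and the other 7 members were not. Since the genes were put together with this contrast known, nothing is read from these counts. *Fos* and *Atf3* had larger fold changes than *Klf4* but were not called, at lower counts and with a wider SE.

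**Figure D2:**
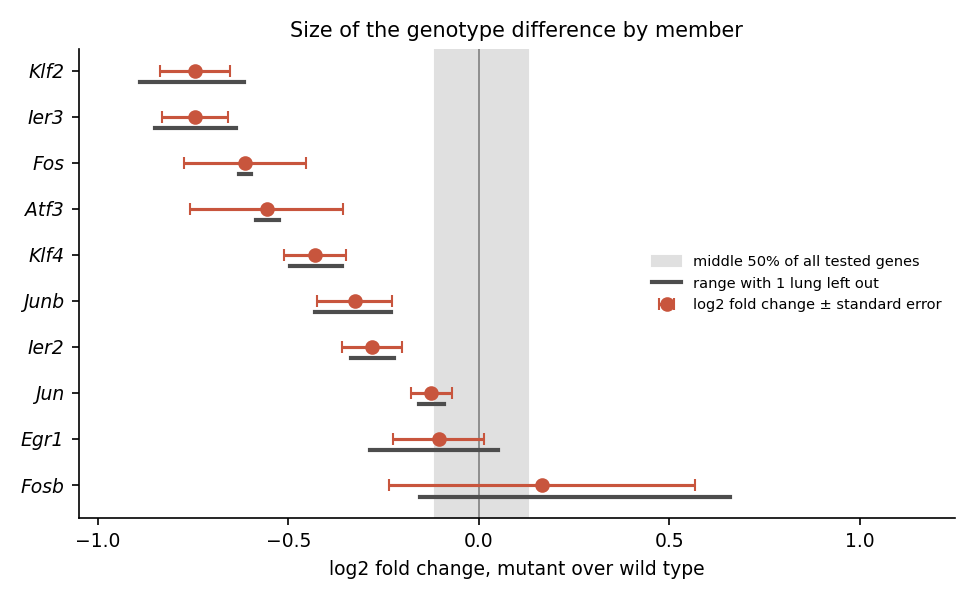
Log2 fold change of mutant over wild type for each member, with red bars of 1 SE on each side (n = 2 per genotype), black bars for the range with 1 lung left out, and a grey band from the lower to the upper quartile of all genes tested. *Ier3* and *Klf2* lie at -0.74, and both kinds of bar cross 0 for *Fosb* and *Egr1*.

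**Figure D3:**
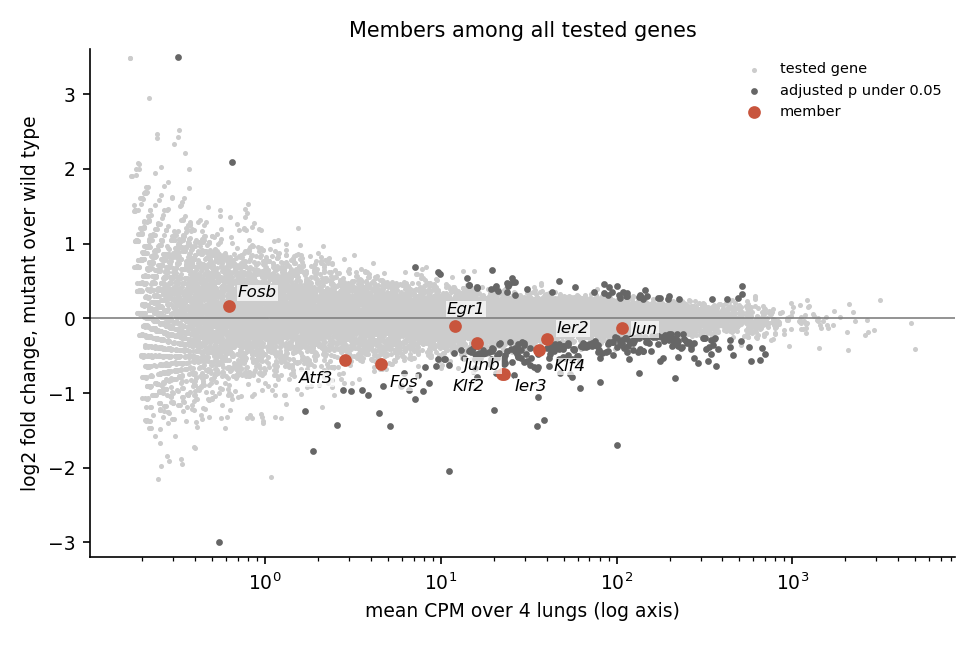
Log2 fold change against mean CPM (log axis) over the 4 lungs for all 18763 genes tested, with genes of adjusted p under 0.05 in dark grey and the members in red. *Fosb*, the scarcest member, lies where fold changes of all genes spread widely, and *Jun*, the most abundant, lies close to 0 at -0.12.

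The members also differed in level. Levels between genes are compared as CPM per kilobase of exon (FPKM), computed here from the counts. In wild-type lungs the order was *Jun* (34.9), *Ier2* (28.8), *Ier3* (25.4), *Klf2* (15.1), *Klf4* (13.6), *Junb* (7.74), *Egr1* (2.77), *Fos* (2.34), *Atf3* (1.57) and *Fosb* (0.093). The 2 wild-type lungs of neighbours in this order did not overlap, although with 2 lungs this is a description. In mutant lungs *Klf4*, at 10.1 FPKM, came above *Klf2*, at 9.0 FPKM, and the ranges of those 2 genes overlapped, from 9.74 to 10.5 and from 8.15 to 9.84. Within each lung the ratio of *Klf2* to *Klf4* was 1.02 and 1.2 in wild type and 0.837 and 0.938 in the mutant. The ratio of *Ier3* to *Ier2* was 0.841 and 0.922 in wild type and 0.689 and 0.594 in the mutant. A ratio within a lung does not depend on library scaling.

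Among the FOS family genes, *Fosl2* supplied most of the transcript, with 66.7% to 70.1% of the summed FPKM of *Fos*, *Fosb*, *Fosl1* and *Fosl2* in every lung. *Fos* supplied 18% and 17.8% of that sum in wild-type lungs and 13.1% and 14% in mutant lungs. The family sum was 12.9 and 13.3 FPKM in wild type and 11.6 and 11.1 FPKM in the mutant. Among *Jun*, *Junb* and *Jund*, *Jun* supplied 51.3% to 56.4% and *Junb* 9.96% to 11.8% over the 4 lungs. The sum of these 3 genes was 63.6 and 69.4 FPKM in wild-type lungs and 57.4 and 58.8 FPKM in mutant lungs. Exons of *Fosl1* and *Jund* also overlap an antisense gene.

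The mutant lungs were not equal across the members. Mutant lung 1 was male and mutant lung 2 female by *Xist*, so sex and other differences between these lungs cannot be told apart. *Egr1*, *Junb*, *Ier2*, *Klf2*, *Klf4* and, by less, *Fos* and *Atf3* were higher in mutant lung 2 than in mutant lung 1, while *Ier3*, *Jun* and *Fosb* were lower there. The gap between the 2 mutant lungs was 0.34 on the log2 scale for *Egr1*, 0.27 for *Klf2* and 0.20 for *Junb*, and 0.03 for *Fos* and *Jun*. In the median, the members had shorter transcripts with more GC and fewer exons, although *Fosb* (6243 bp) and *Egr1* (4484 bp) were longer than the median gene. Their median exon length was 2326 bp beside 3754 bp over all genes tested, their median GC content 55.76% beside 49.44%, and their longest transcript had a median of 2.5 exons beside 6. With an offset for GC content and exon length the log2 fold changes of the 9 members below 0 moved toward 0, to -0.66 for *Klf2*, -0.67 for *Ier3*, -0.36 for *Klf4*, -0.18 for *Ier2* and -0.06 for *Jun*, while that of *Fosb* went from 0.17 to 0.20.

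Other genes of these pathways were taken from 9 lists, with 151 of their 154 genes tested, not counting the members. Of these 151, 6 fell at an adjusted p under 0.05 and 0 rose, or 3.97% called beside 1.64% of all genes tested, and the median log2 fold change was -0.07. At an unadjusted p under 0.05, 42 were lower and 4 higher (*Creb1*, *Myc*, *Map3k2* and *Klf12*), which is 46 of 151 in all beside 3104 of the 18763 genes tested. The Wald test of DESeq2 called 8 lower and 0 higher. It gave no adjusted p for 29 of the 151, which could not be called with it. Exons of *Bhlhe40*, *Nab2*, *Nos3*, *Edn1*, *Rapgef3* and *Dnajb9*, named among these genes, overlap an antisense gene, so their counts are uncertain.

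Of 37 other immediate early genes 3 fell and 34 did not pass. Of the 37, 33 log2 fold changes were below 0 (49.5% of all genes tested), the median was -0.19, and both mutant lungs were below both wild-type lungs in 21 (24.3% of all genes tested). *Btg2*, an antiproliferative gene, was at 230 and 238 CPM in wild-type and 182 and 193 CPM in mutant lungs (log2 fold change -0.32 ± 0.05, edgeR adjusted p = 0.0108). *Gadd45g*, a stress-response gene, was at 53.2 and 62.8 against 36.7 and 44.3 CPM (-0.51 ± 0.10, adjusted p = 0.0307). *Socs3*, a feedback inhibitor of cytokine signalling, was at 20.1 and 23.5 against 14.8 and 17.1 CPM (-0.45 ± 0.10, adjusted p = 0.0451). These 3 genes had no overlap between genotypes. *Sik1*, *Bhlhe40*, *Ctgf* and *Trib1* had log2 fold changes of -0.22, -0.42, -0.30 and -0.28 with edgeR adjusted p from 0.0585 to 0.0786 and did not pass. DESeq2 called 5 of the 37, adding *Bhlhe40* and *Sik1*, and gave no adjusted p for 10 of the 37. With the default expression filter of edgeR in place of the mean of 5 counts, *Socs3* was not called. *Socs3* lost its call when wild-type lung 2 or mutant lung 1 was left out, and *Gadd45g* lost it without wild-type lung 2. The paralog *Egr4* was not tested because of its low counts.

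Among the other AP-1, ATF and small Maf genes 0 of 14 passed with edgeR or DESeq2, with 3 lower and 1 higher at an unadjusted p under 0.05 and a median log2 fold change of -0.02. *Fosl2*, which encodes a FOS-related partner of JUN, was at 83.2 and 86.0 CPM in wild-type and 75.4 and 75.1 CPM in mutant lungs (-0.17 ± 0.06, edgeR adjusted p = 0.191). *Jund*, whose product is the third JUN protein, was at 37.1 and 42.8 against 32.2 and 34.3 CPM (-0.26 ± 0.09, adjusted p = 0.156), but its exons overlap an antisense gene by 877 bp. *Maff* and *Creb1* had log2 fold changes of -0.23 and 0.11 and did not pass. Over all genes tested, 3104 of 18763 had an unadjusted p under 0.05. DESeq2 gave no adjusted p for 4 of the 14 genes, which could not pass with it.

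The lists of ERK feedback genes, upstream factors, EGR corepressors and heat shock genes gave no calls. DESeq2 gave no adjusted p for 6 of the 19 ERK feedback genes and 2 of the 12 heat shock genes. These genes could not pass with it. Of 19 ERK pathway feedback genes, which are transcribed when ERK is active, 0 passed with edgeR or DESeq2, 3 were lower and 0 higher at an unadjusted p under 0.05, and the median log2 fold change was -0.04. Of 32 upstream kinases and SRF or CREB factors, 0 passed with either tool, 5 were lower and 1 higher at an unadjusted p under 0.05, and the median was -0.02. The nearest to the threshold in these lists were *Mapkapk2*, a stress kinase, at -0.21 ± 0.06 (adjusted p = 0.0985) and *Map2k3* at -0.23 ± 0.07 (adjusted p = 0.115). *Mapkapk2* passed with the replicate block and without a filter. The unadjusted p was under 0.05 for 3104 of the 18763 genes tested. The EGR corepressors *Nab1* and *Nab2* had log2 fold changes of -0.08 and -0.16, and 0 of the 2 passed with either tool or at an unadjusted p under 0.05. Of 12 heat shock genes, which respond to protein damage, 0 passed with either tool or at an unadjusted p under 0.05, and the median was -0.02.

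Of 14 other Krüppel-like factor genes 1 fell. *Klf9*, a hormone-responsive member of the family, was at 42.3 and 40.9 CPM in wild-type and 30.4 and 31.7 CPM in mutant lungs (-0.42 ± 0.08, edgeR adjusted p = 0.0196), close to the log2 fold change of *Klf4*. Its call was lost without wild-type lung 2. *Klf13*, *Klf15* and *Klf10* had log2 fold changes of -0.22, -0.32 and -0.16 and *Klf12* of 0.44, and none of them passed. Of 8 endothelial genes that KLF2 and KLF4 are known to act on, 7 log2 fold changes were below 0 (49.5% of all genes tested). Of the 8, 1 passed. *Thbd*, which encodes the anticoagulant receptor thrombomodulin, was at 216 and 208 CPM in wild-type and 178 and 175 CPM in mutant lungs (-0.26 ± 0.05, adjusted p = 0.0198), and its call was lost without wild-type lung 1. *S1pr1*, *Gja4*, *Tie1* and *Nos3* had log2 fold changes of -0.24, -0.33, -0.16 and -0.19 with adjusted p from 0.0652 to 0.226. *Tek* and *Rapgef3* were at -0.03 and -0.15, with edgeR adjusted p of 0.797 and 0.326. *Edn1*, which these factors are known to repress, was at 0.23 ± 0.14 (adjusted p = 0.467) and did not pass. Its genotypes overlapped, with mutant lung 2 between the wild-type lungs. Whether KLF2 or KLF4 acted on any of these genes in these lungs was not tested. Of 13 genes of the integrated stress response and unfolded protein response, 1 fell: *Ddit4*, an inhibitor of mTOR signalling, went from 70.9 and 74.4 CPM to 54.6 and 56.6 CPM (-0.38 ± 0.07, adjusted p = 0.0199), a call lost without wild-type lung 2. *Herpud1*, *Dnajb9*, *Xbp1* and *Trib3* did not pass, at -0.20, -0.18, -0.14 and -0.25.

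**Figure D4:**
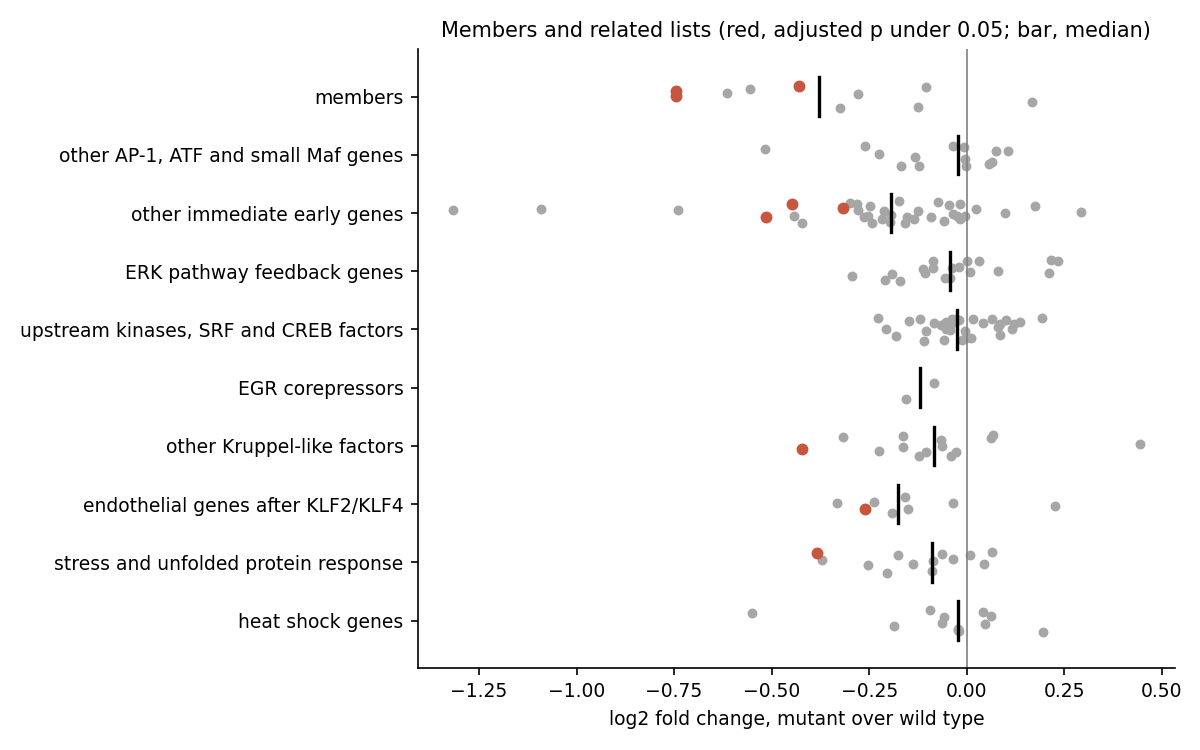
Log2 fold change of mutant over wild type for each gene of the 9 related lists and the members, with 1 point per gene (red, adjusted p under 0.05; grey, other genes) and a black bar at each median. The called genes of the related lists all lie below 0, and most of the points of the ERK feedback, upstream and heat shock lists lie near 0.

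Markers of cell types that a lung lobe can hold were compared as well. Most endothelial, epithelial, smooth muscle, cardiac muscle, erythroid and leukocyte markers had log2 fold changes below 0, as had 49.5% of all genes tested. Mesenchymal, smooth muscle and neural markers had median log2 fold changes of -0.04, -0.09 and 0.13. In that order, 4 of 7, 5 of 5 and 1 of 4 of them were below 0. The summed level of 8 endothelial markers was 1696 and 1698 CPM in wild-type and 1558 and 1544 CPM in mutant lungs, with 8 of 8 log2 fold changes below 0, a median of -0.11 and 1 call, *Cldn5*. *Klf2*, at -0.74, was farther from 0 than any of these 8 markers, the lowest of which was at -0.34. That difference between *Klf2* and the endothelial markers was not tested. The summed level of 8 epithelial markers was 8210 and 8023 CPM against 5802 and 6760 CPM, with a median of -0.31 and 4 calls (*Cdh1*, *Sftpb*, *Krt8* and *Hopx*). The 4 cardiac muscle markers tested summed to 183 and 234 against 147 and 135 CPM, with 3 calls (*Myl7*, *Myh6* and *Tnnt2*) and a median of -0.61. Of 6 erythroid markers 2 were called (*Hba-a2* and *Alas2*, sum 4259 and 5348 against 3759 and 4274 CPM), and of 7 leukocyte markers 1, *Lyz2* (sum 278 and 259 against 191 and 233 CPM). All these calls were of lower levels in mutant lungs. Of all genes tested, 1.64% were called and 1.34% were called lower. Those of *Cldn5*, *Sftpb*, *Myl7*, *Tnnt2*, *Alas2* and *Hba-a2* were lost without wild-type lung 2, and that of *Cdh1* without wild-type lung 1. The Wald test of DESeq2 did not call *Hopx*, *Alas2*, *Hba-a2* or *Lyz2*. The robust fit did not call *Hopx* or *Hba-a2*. *Hba-a2* was also not called with DESeq2 size factors or with the default expression filter of edgeR. The counts of *Hopx*, *Krt8*, *Myh6* and *Alas2*, whose exons overlap an antisense gene, and of *Hba-a2*, which has a near-identical copy, are uncertain. Of 7 mesenchymal, 5 smooth muscle and 4 neural markers 0 passed with edgeR or DESeq2, with 1 mesenchymal marker lower at an unadjusted p under 0.05. Their sums ranged over 5138 to 5453, 636 to 709 and 10.7 to 12.1 CPM over the 4 lungs. DESeq2 gave no adjusted p for 4 of the 4 neural and 1 of the 5 smooth muscle markers, which could not pass with it. Epithelial and mesenchymal markers were abundant in every lung, as a lung lobe should have them, and *Nppa* of the cardiac list had too few counts to test. The part of these cell types in the values of the members was not tested.

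The 6 genes whose pattern over the 4 lungs was nearest to the mean pattern of the members, among the 12736 genes that reached a mean of 100 counts, were *Dok4*, *Rab3d*, *Slc9a3r2*, *Dll1*, *Kcnj15* and *Rab25*. Nearness was the Euclidean distance between centred log2 CPM values, and it ran from 0.0139 for *Dok4* to 0.0366 for *Rab25*. *Dok4*, for example, was at 81.8 and 82.0 CPM in wild-type and 61.5 and 65.3 CPM in mutant lungs. With 4 lungs, many genes have nearly the same pattern, and the order of these 6 is a description.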

How the data were processed

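Total RNA of the left lobes was made into stranded mRNA libraries and sequenced as single-end reads. The deposited values are unnormalised read counts for each Ensembl gene, which the authors made with STAR 2.4.0a on GRCm38 and featureCounts 1.5.1; the submitters' notes also name FastQC and DESeq2 1.14.1. The strand setting of the counting is not given in the sources used here, so antisense overlaps in GENCODE M21 exons are named for members and list genes.

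Here, the 18763 of 45706 genes that averaged 5 or more counts were fitted by the quasi-likelihood method of edgeR (version 4.0.16, under R 4.3.3) after TMM scaling, with Benjamini-Hochberg adjustment. Fold changes and errors come from this fit, and CPM values use its library sizes. Members and lists were chosen with earlier results of these data known. All members are named. Of each related list, every gene past an adjusted p of 0.05 and up to 4 others with the lowest unadjusted p are named. *Edn1*, *Rapgef3*, *Tek*, *Myc* and *Map3k2* were named after their values were seen. Marker genes are named only where they pass. Of the genes on the marker lists, 1 is not reported here.

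The 2 lungs of a genotype came from separate mice and differed by more than counting error, so their number limits the precision. Alternatives were DESeq2 1.42.0 size factors or library totals, other filters, a robust fit, the Wald test of DESeq2, the replicate number as a block, leaving out chromosomes X, Y and MT, a GC content and exon length offset (loess, span 0.3), and leaving out each lung. A crossed block, which joined lungs of like *Xist* level, was added after seeing the data. Leaving out 1 lung left its genotype with 1 sex. The edgeR fit was tested on simulated data. At an adjusted p under 0.05 it called 100 of 100 genes with a true log2 fold change of 1 in size. It called 75 of 100 genes at 0.5 and 18 of 18315 unchanged genes. In the simulation the spread of each gene followed a shared trend with its level, and the sexes did not differ. Changes were placed only in well-counted genes, which leaves out genes as scarce as *Fosb*. The simulated calls therefore do not give the share of missed or false calls in the real lungs.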

Additional observations from a re-analysis of the deposited data

How the results depend on the processing

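The labels number the lungs 1 and 2 in each genotype but do not say that a number marks a shared litter or day. The deviations of same-numbered lungs had a correlation of -0.21 over all genes tested. Without chromosomes X, Y and MT it was -0.02. With 2 lungs per genotype these values cannot decide whether same-numbered lungs shared a litter or day. The main fit did not pair the lungs. With the replicate block 710 genes were called in place of 308, with 13 of the related genes in place of 6, and *Junb* joined the called members. Same-numbered lungs were of opposite sex by *Xist*. A crossed block, added after the data were seen, joined wild-type lung 1 with mutant lung 2 and wild-type lung 2 with mutant lung 1. This was also a block for sex, and with it 415 genes and 8 related genes were called.

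Without a filter 1162 genes and 20 related genes were called, and *Fos*, *Junb* and *Ier2* joined the called members. The robust fit gave 474 and 11, and the offset for GC content and exon length gave 468 genes. With 1 lung left out, a fit with 1 residual degree of freedom in which the lone lung is taken to vary like the other genotype, the called genes ranged from 191 to 1826, the related genes from 2 to 29 and the median log2 fold change of the members from -0.46 to -0.30. Without mutant lung 2, *Junb* and *Ier2* joined the called members; without mutant lung 1, *Klf4* left them. *Ier3* and *Klf2* were called in every fit run. Of the members, *Fosb* (-0.15 to 0.66) and *Egr1* (-0.28 to 0.05) changed sign with 1 lung left out, and none changed sign with all lungs. Lower genes made up 81.8% of the calls, but 67.6% with library totals, 59.2% without a filter, 65.6% with the replicate block, 71.5% with the robust fit and 52.8% without mutant lung 2. The cause of these shifts was not tested. DESeq2 gave no adjusted p for *Fos*, *Fosb*, *Atf3* and *Egr1*.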
